A study of Mus musculus with 36 samples.

Results

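Total RNA of embryonic (E14.5) female mouse cortex was compared between carriers of the T532M missense allele of Ddx3x and their controls. The comparison takes 6 of the 36 libraries of the study: 3 input libraries of T532M conditional heterozygotes (cHet) and 3 input libraries of T532M controls, chosen by the fraction, cross and genotype that the labels and the columns of the count table give. The cHet embryos carried 1 Emx1-Cre allele and 1 conditional Ddx3x-T532M lox allele beside a wild-type Ddx3x allele (Emx1-Cre/+;Ddx3x-T532M lox/+), and the controls carried Emx1-Cre alone (Emx1-Cre/+). Both groups therefore carried Cre. A library is a flash-frozen pool of cortices of 2 embryos of 1 genotype, and the input is clarified lysate taken off before the sucrose gradient that gave the monosome and polysome fractions of the same pools. Emx1-Cre drives recombination in dorsal forebrain progenitors and the cells they give rise to, so that interneurons, vessels, blood and meninges in a pool keep their Ddx3x alleles. The loss-of-function (LoF) cross, used for 1 comparison, has cHet embryos with Emx1-Cre and a lox-flanked Ddx3x allele (Emx1-Cre/+;Ddx3x lox/+) and controls with the lox-flanked allele and no Cre (Ddx3x lox/+).

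DDX3X is a DEAD-box RNA helicase that unwinds structured RNA with ATP and helps ribosomes through the leaders of messages whose 5' ends are hard to scan. It also takes part in stress granules, in innate immune signalling and in Wnt signalling through casein kinase 1. The gene lies on the X chromosome and escapes X inactivation, and changes in it cause DDX3X syndrome, a neurodevelopmental disorder seen mostly in girls. T532M replaces a threonine of the helicase core with methionine, and the altered codon is shown here because it defines the allele. In the GENCODE transcript Ddx3x-201 it lies in exon 14 of 17, in a reading frame of 662 codons, at chrX:13290542-13290544 on the + strand of GRCm38. The capitals mark that codon in the wild-type reference, within 33 coding bases at chrX:13290527-13290559.
Ddx3x T532M codon: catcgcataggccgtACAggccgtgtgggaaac

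Values are counts scaled for library size (CPM) with edgeR's TMM factors, which set libraries on a common scale, and reads are counted over whole genes, introns included. The 6 input libraries held between 38059093 and 41618592 read pairs, so that depth was nearly even. Mitochondrial genes took 2.08 to 3.62% of read pairs in cHet libraries and 1.96 to 2.7% in control libraries. The cortical marker Emx1 stood at 61.4, 80.8 and 79.8 CPM in cHet pools, against 70.9, 74.8 and 67 CPM in control pools. The libraries of a group did not lie together: across the 11955 genes with a mean of at least 2 CPM (genes are not independent replicates), the deviations of control pool 2 from the mean of the 6 libraries correlated at -0.599 with those of control pool 1 and at 0.359 with those of cHet pool 2. The first principal component held 57.3% of the variance and put the cHet pools at -28.8, -10.8 and 3.53 and the control pools at 37.8, -11.2 and 9.41. Shared litters or days of dissection are not given in the labels. The p-values of the input comparison rest on the spread within groups over all 18 T532M libraries. These are input, monosome and polysome libraries of the same 6 pools, treated as independent, so the p-values do not measure the spread of the input pools alone.

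Ddx3x RNA itself was at 236, 198 and 167 CPM in cHet pools, against 50.1, 145 and 111 CPM in control pools. All 3 cHet pools lay above all 3 control pools, and control pool 1 lay far below the other 2 control pools. The cHet mean was 200.1 ± 34.5 CPM, against 102 ± 48 CPM in controls (SD, n = 3 each). In edgeR's quasi-likelihood test with Benjamini-Hochberg adjustment over 18243 genes, the difference did not pass the threshold of 0.05 (log2 fold change 0.97, SE 0.273, adjusted p = 0.264). Over the alternatives tried, its adjusted p ran between 0.0118 and 0.94, with a log2 fold change of 1.31 without control pool 2 and of 0.66 without control pool 1. In the monosome fraction of the same pools the values were close, at 275, 284 and 345 CPM in cHet pools, against 292, 293 and 346 CPM in control pools. In the polysome fraction they were 4117, 5860 and 5261 CPM in cHet pools, against 3047, 3466 and 2268 CPM in control pools. The read counts do not part the T532M allele from the wild-type allele, so they do not check the recombination itself.

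**Figure D1:**
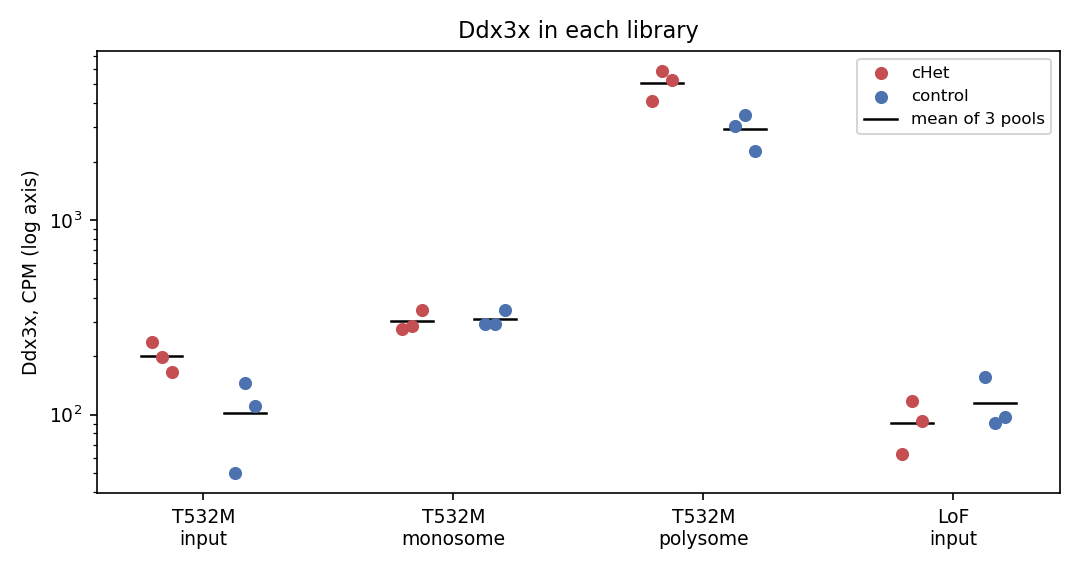
Ddx3x CPM (vertical axis) in each pool, cHet left of control, in T532M input, T532M monosome, T532M polysome and LoF input libraries; the axis is logarithmic, points are pools and lines are means of 3. The 3 T532M cHet input pools lie between 167 and 235.5 CPM, above the control pools at 50.1 to 145 CPM.

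Across all genes, 1 gene of 18243 passed the test in input (0.00548% called): Gm49760, a short gene on chromosome 12 (chr12:18648214-18649998, + strand, GRCm38) known only by a clone-derived name. Its RNA rose in cHet pools to 22, 14 and 28 read pairs, against 4, 4 and 3 read pairs in control pools. These counts are small, and the groups do not overlap (log2 fold change 2.44, SE 0.316, edgeR adjusted p = 0.00799, n = 3 each). The same gene had 98 to 124 read pairs in cHet monosome libraries, against 134 to 160 in control monosome libraries, and in LoF input its counts were 3, 11 and 7 in cHet pools, against 25, 7 and 4 in controls. It no longer passed without control pool 1, control pool 3, cHet pool 1 or cHet pool 3. At an unadjusted p under 0.05 edgeR listed 1956 genes (10.7%), 1265 higher (6.93%) and 691 lower (3.79%) in cHet. All 3 cHet pools lay above all controls for 1114 genes (6.11%) and below them for 1315 genes (7.21%).

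The count of called genes turned on single libraries and on the tool. Without control pool 2, edgeR called 543 of 18601 genes (2.92%), 355 higher (1.91%) and 188 lower (1.01%), while leaving out any of the other 5 pools gave 0 or 1. DESeq2 on the same counts called 121 of 16465 genes (0.735%), 94 higher and 27 lower. The authors' deposited table lists 123 of 13841 genes (0.889%) at an adjusted p under 0.05, 87 higher (0.629%) and 36 lower (0.26%) in cHet. Of these 123 genes, all had an unadjusted p under 0.05 in edgeR, 111 were among the 121 DESeq2 calls and 66 among the 543 calls without control pool 2. For 81 of the 87 genes listed as higher and for 36 of the 36 listed as lower in the authors' deposited table, the input groups did not overlap. The genes named next did not pass edgeR's test, and are those of smallest p in each direction with at least 2 CPM on average and groups that did not overlap.

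Apart from Gm49760, no gene passed the test on the higher side, and the 12 genes of smallest p that carry an assigned name are given here. Nadk2, the mitochondrial NAD kinase (chr15:9071260-9110891), was at 31.7, 28.2 and 26.2 CPM in cHet pools, against 15, 21.9 and 17.6 CPM in control pools (log2 fold change 0.66, SE 0.121, edgeR adjusted p = 0.127). Rxra, a retinoid receptor that pairs with other nuclear receptors, was at 50.5, 51.5 and 60.1 CPM in cHet pools, against 37.5, 37.1 and 31.3 CPM in control pools (log2 fold change 0.61, SE 0.114, edgeR adjusted p = 0.127). Smad4, the shared partner of the receptor-activated Smads in TGF-beta and BMP signalling, was at 165, 167 and 183 CPM in cHet pools, against 106, 128 and 115 CPM in control pools (log2 fold change 0.56, SE 0.105, edgeR adjusted p = 0.127). In each of these 3 genes the gap between the lowest cHet pool and the highest control pool was wider than the distance of any control from the control mean. Ak4, a mitochondrial adenylate kinase, was at 26.4, 27.4 and 30.4 CPM in cHet pools, against 16.3, 19.4 and 18.1 CPM in control pools (log2 fold change 0.65, SE 0.12, edgeR adjusted p = 0.127). Irak1, the kinase that passes on signals of interleukin-1 and Toll-like receptors, was at 92.5, 73.8 and 86.6 CPM in cHet pools, against 58.4, 60.3 and 56 CPM in control pools (log2 fold change 0.54, SE 0.112, edgeR adjusted p = 0.165). Cadps2, which primes dense-core vesicles for release, was at 8.7, 8.22 and 9.08 CPM in cHet pools, against 4.37, 6.91 and 4.5 CPM in control pools (log2 fold change 0.72, SE 0.148, edgeR adjusted p = 0.164), with control pool 2 the highest of its controls. The other 6 were Zbtb2, Raver2, Zmynd19, Zdhhc2, Bend7 and Crebzf, with log2 fold changes between 0.50 and 0.91 and adjusted p between 0.127 and 0.165. Crebzf encodes a bZIP transcription factor and Zdhhc2 an enzyme that attaches palmitate to proteins.

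Several of these 12 genes passed the test in the monosome fraction of the same pools, where 188 of 18243 genes did (1.03%). They were Rxra (log2 fold change 0.76, adjusted p = 0.00356), Smad4 (log2 fold change 0.71, adjusted p = 0.00315), Ak4 (log2 fold change 0.68, adjusted p = 0.0112), Cadps2 (log2 fold change 1.16, adjusted p = 0.00151), Raver2 (log2 fold change 0.68, adjusted p = 0.0134) and Zmynd19 (log2 fold change 0.50, adjusted p = 0.0166), all by edgeR and all higher in cHet. Input and monosome libraries come from the same 6 pools, so that the monosome values are no independent repeat. In the polysome fraction of these pools 0 of 18243 genes passed edgeR's test for cHet against control. In LoF input 0 of 18556 genes passed.

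On the lower side, none of the genes of smallest p passed the test. Rps29, a small protein of the 40S subunit (chr12:69157722-69159186), was at 107, 108 and 92.5 CPM in cHet pools, against 143, 138 and 171 CPM in control pools (log2 fold change -0.55, SE 0.114, edgeR adjusted p = 0.165). Asrgl1, which cleaves isoaspartyl bonds and asparagine, was at 37.9, 41.2 and 38.9 CPM in cHet pools, against 51.3, 48.6 and 51.4 CPM in control pools (log2 fold change -0.36, SE 0.0839, edgeR adjusted p = 0.181). The authors' deposited table lists both, Rps29 with an adjusted p of 0.00196 and Asrgl1 with 0.00179. Abcb9, a lysosomal peptide transporter, was at 5.52, 5.89 and 5.59 CPM in cHet pools, against 9.16, 9.21 and 7.43 CPM in control pools (log2 fold change -0.60, SE 0.133, edgeR adjusted p = 0.165). Acsbg1, an acyl-CoA synthetase of the brain, was at 8.16, 8.98 and 10.3 CPM in cHet pools, against 13.6, 11.7 and 14.7 CPM in control pools (log2 fold change -0.54, SE 0.133, edgeR adjusted p = 0.194). Ezh1, which methylates lysine 27 of histone H3, was at 10.6, 10.7 and 10.9 CPM in cHet pools, against 16.6, 12.8 and 15.5 CPM in control pools (log2 fold change -0.48, SE 0.127, edgeR adjusted p = 0.242). The cHet pools lay closer together than the control pools in each of these 5 genes but Asrgl1. Hs3st4, a heparan sulfate sulfotransferase of deep-layer neurons, had the largest difference of those described here, at 15.8, 11.8 and 15.6 CPM in cHet pools, against 31.4, 17.6 and 32.1 CPM in control pools (log2 fold change -0.91, SE 0.265, edgeR adjusted p = 0.283), with control pool 2 nearest to the cHet pools. Acot1, a thioesterase that frees fatty acids from coenzyme A, had a log2 fold change of -0.42 in input and passed in monosome libraries (log2 fold change -0.64, adjusted p = 0.0143, edgeR). Another 4 were Ccdc28b, Hint2, a mitochondrial nucleotide hydrolase, Mospd3 and Use1, a SNARE of transport back to the endoplasmic reticulum, with log2 fold changes between -0.53 and -0.42.

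**Figure D2:**
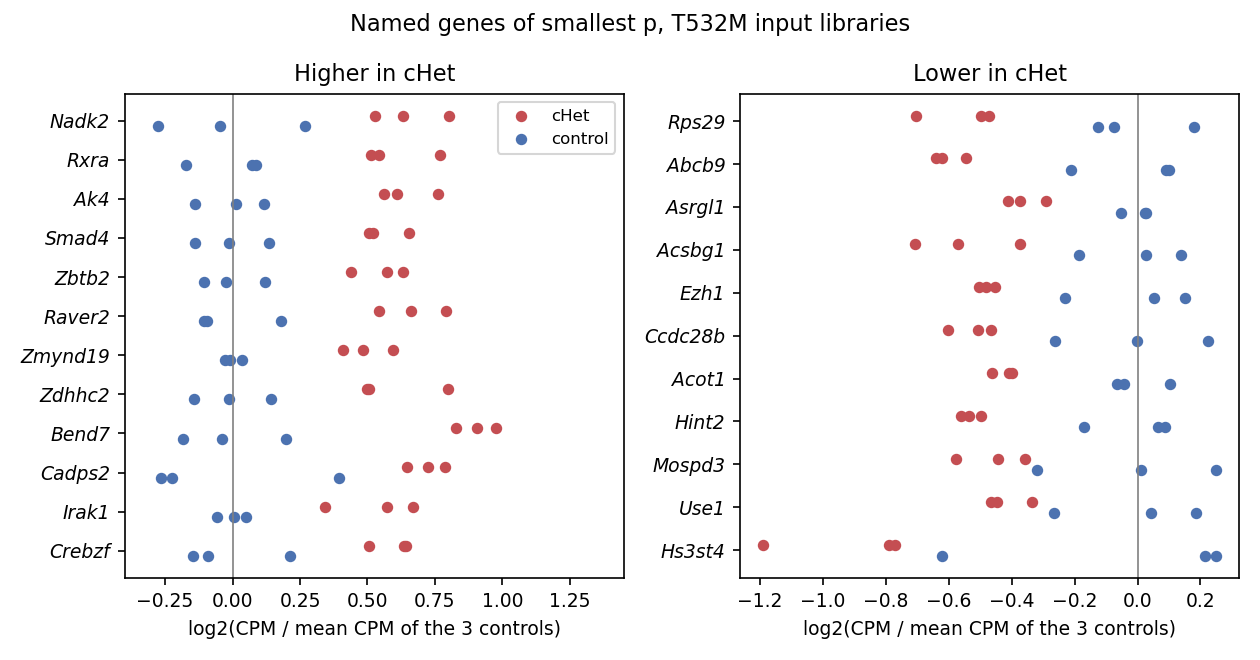
Each pool's log2 ratio to the mean CPM of the 3 control pools (horizontal axis) for 12 genes of smallest p on the higher side (left) and 11 on the lower side (right), with cHet and control pools as points. None of the 23 passed edgeR's test (adjusted p 0.127 to 0.283), and in each the cHet and control points do not overlap.

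The genes of cytosolic ribosomal proteins, the proteins of the 40S and 60S subunits whose messages carry a 5' terminal oligopyrimidine (TOP) tract, stood slightly lower in cHet pools as a group. Of 82 genes, 80 passed the filter on low counts, and none passed edgeR's test. The log2 fold change was negative in 78 of them (97.5%), against 50.2% of all genes, and in 56 (70.0%) all 3 cHet pools lay below all controls, against 7.21% of all genes. Their median log2 fold change was -0.23 (-0.29 without control pool 2, -0.18 without control pool 1), against -0.001 over all genes tested. Here and for the lists that follow, the bracket holds the lowest and the highest median when 1 pool is left out. Their summed level was 44180, 41620 and 42400 CPM in cHet pools, against 52070, 45070 and 50260 CPM in control pools. All cHet sums lay below all control sums, and control pool 2 was the control nearest to them.

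The difference was of like size in both subunits. The 33 genes of 40S proteins had a median of -0.21, with 22 below all controls in every cHet pool. The 44 genes of 60S proteins outside the stalk had a median of -0.24, with 33 below all controls. The 3 stalk genes had a median of -0.20, and 1 of them had groups that did not overlap. Rps13 was at 323, 307 and 315 CPM in cHet pools, against 411, 363 and 406 CPM in control pools (log2 fold change -0.32). Rps28 was at 137, 128 and 128 CPM in cHet pools, against 165, 148 and 173 CPM in control pools (log2 fold change -0.31). Rpl39 was at 182, 180.2 and 172 CPM in cHet pools, against 233, 202 and 235 CPM in control pools (log2 fold change -0.33). In all 3 genes control pool 2 was the lowest control and still above every cHet pool. Rplp0 of the stalk, at 1731, 1537 and 1697 CPM in cHet pools, against 1999, 1608 and 1827 CPM in control pools, had groups that overlapped. The 2 genes with a positive value, chosen after their values were seen, were Rps2 (0.01) and Rpl36al (0.02), and both changed sign under some alternatives. The authors' deposited table lists 11 of the 80 as lower, Rps29, Rps28, Rps13 and Rpl39 among them, against 0.26% of all genes there. DESeq2 called 9 of the 80 as lower, against 27 of 16465 genes. Without control pool 2, edgeR called 2 of the 80 as lower, against 1.01% of all genes. In the other fractions of the same pools the median was 0.06 in monosome and 0.01 in polysome libraries, and in LoF input it was 0.12.

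Nuclear genes of oxidative phosphorylation, which encode the respiratory chain and ATP synthase of mitochondria, stood lower by a like amount. Of 74 genes 72 were tested and none passed edgeR's test. All 72 had a negative log2 fold change, with a median of -0.22 (-0.28 without control pool 2, -0.15 without control pool 1), and in 41 (56.9%) every cHet pool lay below all controls, against 7.21% of all genes. By complex, the medians were -0.22 for the 35 genes of complex I, -0.13 for the 4 of complex II, -0.23 for the 9 of complex III, -0.24 for the 9 of complex IV and -0.22 for the 15 of ATP synthase. Genes with groups that did not overlap numbered 21, 3, 5, 3 and 9 in the same order. Ndufb11, an accessory subunit of complex I, was at 105, 97 and 97.9 CPM in cHet pools, against 134, 109 and 122 CPM in control pools (log2 fold change -0.28, SE 0.0949, edgeR adjusted p = 0.339), and it is the gene of the list that the authors' deposited table calls (adjusted p = 0.0444). Ndufs5, another accessory subunit of complex I, was at 21.7, 20.4 and 21.2 CPM in cHet pools, against 29.6, 23.6 and 28.4 CPM in control pools (log2 fold change -0.37). Atp5b, the catalytic beta subunit of ATP synthase, was at 764, 913 and 924 CPM in cHet pools, against 1055, 912 and 974 CPM in control pools, with control pool 2 below cHet pools 2 and 3. The median of the list was 0.04 in monosome, -0.07 in polysome and 0.09 in LoF input libraries.

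Genes of mitochondrial ribosomal proteins, which translate the messages of the mitochondrial genome, differed less. Of 74 tested, none passed edgeR's test, 70 had a negative value and 31 (41.9%) had every cHet pool below all controls, against 7.21% of all genes. Their median was -0.15 (-0.18 without control pool 2, -0.08 without control pool 1), and it was -0.09 after an offset for gene length. Mrpl34 was at 41.8, 38.2 and 37.2 CPM in cHet pools, against 55.9, 43.5 and 48.9 CPM in control pools (log2 fold change -0.34). The messages that mitochondria encode themselves had a median of 0.09, with 3 of 10 negative, but its sign turned on single pools. It was -0.27 with 9 negative without cHet pool 1, and -0.03 with 6 negative without control pool 1. The summed level of these messages was 27650, 17020 and 15730 CPM in cHet pools, against 15340, 20480 and 21360 CPM in control pools. The groups overlapped with cHet pool 1 highest, and none of the 10 tested had groups that did not overlap.

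Other parts of the translation machinery differed less. Of 41 initiation factor genes none passed edgeR's test, 26 had a negative value and 10 (24.4%, against 7.21% of all genes) had every cHet pool below all controls, with a median of -0.09 (-0.10 without cHet pool 3, -0.05 without control pool 1). Eif3i, a subunit of the eIF3 complex, was at 162, 168 and 175 CPM in cHet pools, against 214, 182 and 192 CPM in control pools (log2 fold change -0.22). Eif4a1, the DEAD-box helicase that acts with the cap-binding complex, was at 637, 742 and 735 CPM in cHet pools, against 827, 785 and 795 CPM in control pools (log2 fold change -0.19). Both had groups that did not overlap. Eif5, which prompts GTP hydrolysis on the scanning ribosome, differed in the opposite direction, at 254, 199.7 and 163 CPM in cHet pools, against 92.1, 187 and 153 CPM in control pools (log2 fold change 0.51), with control pool 1 far below the rest and control pool 2 above cHet pool 3. Elongation factors and other TOP messages had a median of -0.16 (-0.18 without control pool 2, -0.09 without control pool 1) over 14 genes. In 3 of the 14 (21.4%) every cHet pool lay below all controls, against 7.21% of all genes. Eef1a1, which brings charged tRNA to the ribosome, was at 9912, 9594 and 10430 CPM in cHet pools, against 11630, 10270 and 11630 CPM in control pools, with cHet pool 3 above control pool 2. Of 20 aminoacyl-tRNA synthetase genes 15 were negative, with a median of -0.09 (-0.16 without cHet pool 2, 0.04 without cHet pool 1), and without cHet pool 1 only 9 were negative. In 4 of the 20 every cHet pool lay below all controls, against 7.21% of all genes, among them Sars at 153, 182 and 187 CPM in cHet pools, against 239.5, 192 and 207 CPM in control pools. The 40 DEAD-box and DEAH-box helicase genes tested had a median of -0.03 (-0.09 without cHet pool 2, 0.08 without cHet pool 1), with 21 negative. In 3 of them (7.5%) every cHet pool lay below all controls, near the 7.21% of all genes.

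**Figure D3:**
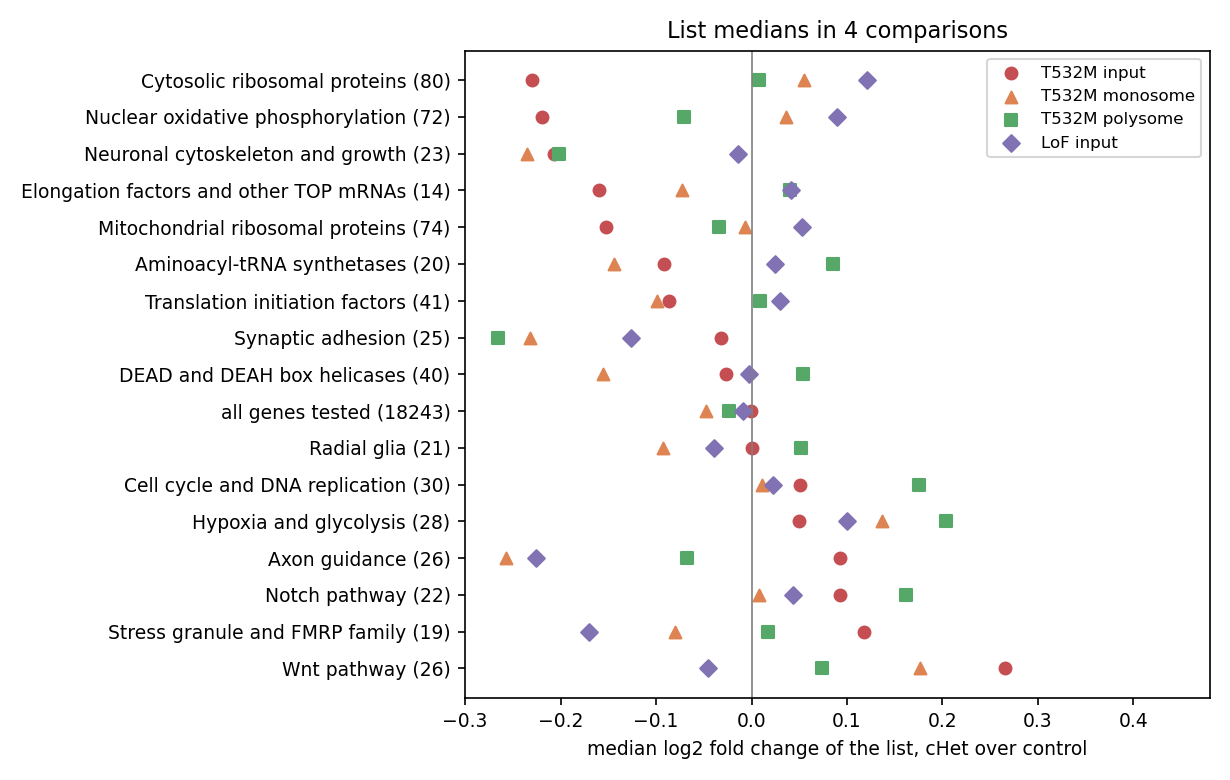
Median log2 fold change, cHet over control (horizontal axis), of gene lists (rows, number of genes tested in T532M input in brackets) in T532M input, T532M monosome, T532M polysome and LoF input libraries. In T532M input, cytosolic ribosomal proteins lie at -0.23, nuclear oxidative phosphorylation at -0.22 and the Wnt pathway at 0.27, with all genes at -0.001.

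The ribosomal and respiratory genes are short, and the input difference moved with gene span. In T532M input the median log2 fold change was -0.08 in the first of 5 equal bins of genes by span, which holds the shortest, and 0.10 in the last, with values of -0.06, -0.01 and 0.05 between them. In LoF input the order was the opposite, at 0.05 in the shortest and -0.14 in the longest bin. For each library, the median deviation of genes in the longest bin less that in the shortest bin was 0.110, 0.124 and 0.082 in cHet pools, against -0.327, 0.060 and -0.046 in control pools. Control pool 1 stands apart in this measure, and control pool 2 lies nearest to the cHet pools. Within the shortest bin, 63 ribosomal protein genes had a median of -0.23, against -0.08 for 3586 other genes of like span. With an offset for gene length in the edgeR fit, the median was -0.16 for ribosomal proteins and -0.19 for oxidative phosphorylation. Reads over introns are part of all these values.

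**Figure D4:**
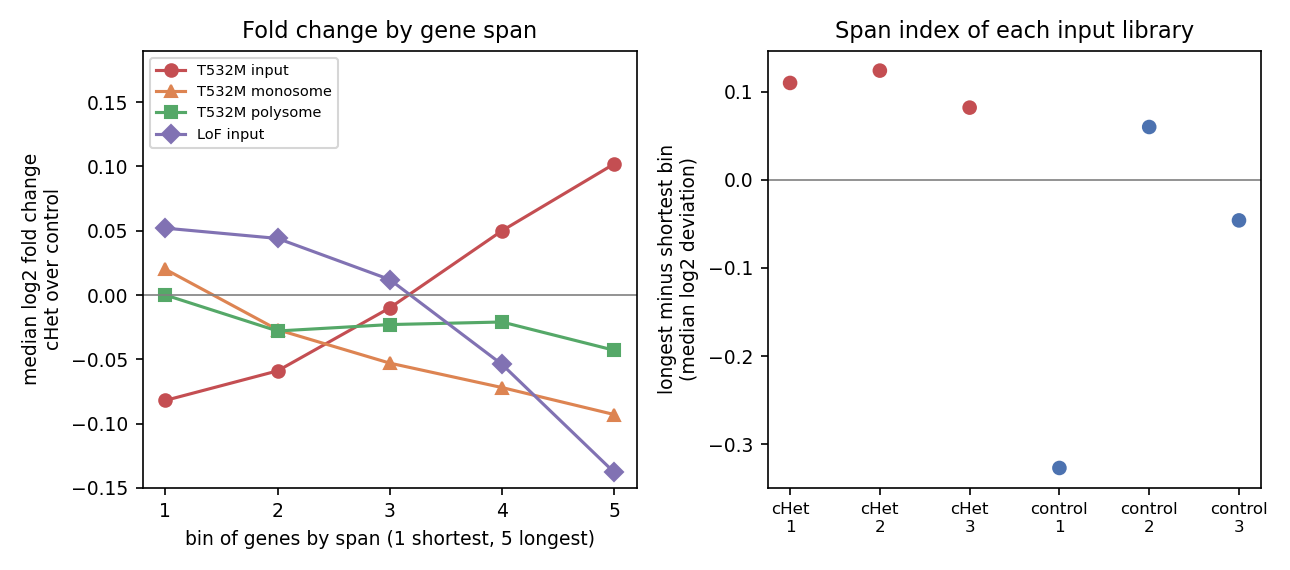
Left, median log2 fold change, cHet over control (vertical axis), in 5 equal bins of genes by span (horizontal axis, 1 shortest and 5 longest) in 4 comparisons; right, the span measure of each T532M input library, the longest bin less the shortest bin in log2 units. T532M input runs between -0.08 and 0.10 from bin 1 to bin 5, LoF input between 0.05 and -0.14, and control pool 1 sits lowest at -0.327.

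Genes of the Wnt pathway were mostly at higher values in cHet pools. Wnt ligands bind Frizzled and Lrp coreceptors, which stabilises beta-catenin, while inhibitors hold the pathway back. Of 27 genes 26 were tested and none passed edgeR's test. In 23 the log2 fold change was positive, against 49.7% of all genes, and in 7 (26.9%) every cHet pool lay above all controls, against 6.11% of all genes, with a median of 0.27 (0.18 without control pool 1, 0.32 without control pool 2), and of 0.18 with the offset for gene length. All 4 Frizzled receptors and Lrp coreceptors were positive (median 0.36, 2 with groups that did not overlap). So were all 5 genes grouped here as inhibitors (median 0.34, 3 with groups that did not overlap). The 9 cytoplasmic transducers had a median of 0.13. The remaining 8 genes, nuclear factors and the membrane receptor Lgr5, had a median of 0.24 with all groups overlapping. Znrf3, a ubiquitin ligase that removes Frizzled receptors from the membrane, was at 15.6, 15.8 and 13.6 CPM in cHet pools, against 8.14, 12.9 and 10.5 CPM in control pools (log2 fold change 0.51, SE 0.14, edgeR adjusted p = 0.248). Nkd1, an inhibitor that binds Dishevelled, was at 74, 61.1 and 62.6 CPM in cHet pools, against 55, 50.7 and 50.4 CPM in control pools (log2 fold change 0.34, SE 0.094, edgeR adjusted p = 0.256). Nkd1 passed in monosome libraries (log2 fold change 0.47, adjusted p = 0.0211, edgeR), and the authors' deposited table calls it in input (adjusted p = 0.0327). Lrp5, a coreceptor, was at 54.8, 57.7 and 67 CPM in cHet pools, against 49.5, 45.8 and 50.5 CPM in control pools (log2 fold change 0.30). Fzd3, a Frizzled receptor needed for cortical axon tracts, was at 124, 68.5 and 70.7 CPM in cHet pools, against 36.6, 70.7 and 64.9 CPM in control pools, with control pool 2 above cHet pool 2. The list's median was 0.18 in monosome and 0.07 in polysome libraries. Notch pathway genes had a median of 0.09 (0.04 without cHet pool 2, 0.19 without control pool 2) over 22, with 18 positive and none above all controls in every cHet pool. Mib1, the ligase that activates Notch ligands, had the smallest p of them, at 56.5, 41.5 and 33.5 CPM in cHet pools, against 15.2, 35.3 and 25.5 CPM in control pools (log2 fold change 0.79, SE 0.22, edgeR adjusted p = 0.26).

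Of 28 tested genes of hypoxia and glycolysis none passed edgeR's test and 6 (21.4%, against 6.11% of all genes) lay above all controls in every cHet pool. The median of the list was 0.05 (-0.02 without cHet pool 2, 0.13 without cHet pool 1), and it was -0.007 without cHet pool 3. These 6 were Ak4, Pdk1, Slc16a3, P4ha1, Vegfa and Egln3. Pdk1, the kinase that closes the pyruvate dehydrogenase complex, was at 45.5, 50.6 and 57.6 CPM in cHet pools, against 26, 35.3 and 31.6 CPM in control pools (log2 fold change 0.73, SE 0.154, edgeR adjusted p = 0.165). Slc16a3, a lactate exporter, was at 7.64, 13.1 and 12.6 CPM in cHet pools, against 4.77, 6.7 and 7.23 CPM in control pools (log2 fold change 0.84, SE 0.277, edgeR adjusted p = 0.331). P4ha1, a collagen prolyl hydroxylase subunit, was at 26.6, 28.7 and 30.9 CPM in cHet pools, against 21.1, 22 and 26.2 CPM in control pools (log2 fold change 0.32). The groups do not overlap in any of the 3, and the gap is narrowest in P4ha1. Pdk1 passed in monosome libraries (log2 fold change 0.97, adjusted p = 0.00495, edgeR), and the authors' deposited table calls it in input (adjusted p = 0.0179). Gapdh, the most abundant gene of the list, was at 857, 1053 and 935 CPM in cHet pools, against 1140, 1078 and 918 CPM in control pools, with groups that overlapped.

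Genes of chromatin remodelling and corepressor complexes split in direction. None of 32 passed edgeR's test, 7 (21.9%) lay above all controls in every cHet pool, against 6.11% of all genes, and 1 lay below, against 7.21%. The median was -0.03 (-0.11 without cHet pool 3, 0.08 without cHet pool 1), with 14 genes positive, against 22 without cHet pool 1. Mta1, a subunit of the NuRD deacetylase complex, was at 361, 342 and 406 CPM in cHet pools, against 279, 254 and 253 CPM in control pools (log2 fold change 0.50, SE 0.112, edgeR adjusted p = 0.173). Mta1 passed in monosome libraries (log2 fold change 0.93, adjusted p = 0.00108, edgeR), and the authors' deposited table calls it in input (adjusted p = 0.015). Rcor1, the CoREST scaffold, was at 45.7, 47.5 and 46.4 CPM in cHet pools, against 28, 40.6 and 34.7 CPM in control pools (log2 fold change 0.44). Rcor2, its paralog, was at 302, 333 and 432 CPM in cHet pools, against 301, 259 and 285 CPM in control pools (log2 fold change 0.34), where cHet pool 1 barely exceeded control pool 1. Phf10, a subunit of the neural progenitor BAF complex, was at 75.5, 77.4 and 71.7 CPM in cHet pools, against 54.1, 67.3 and 58.6 CPM in control pools (log2 fold change 0.32). Smarcd3, a BAF subunit, was the gene on the lower side, at 105, 97.3 and 106 CPM in cHet pools, against 161, 108 and 143 CPM in control pools (log2 fold change -0.41).

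Messages reported elsewhere to depend on DDX3X for translation were looked at as a list of 18. None passed edgeR's test in input, 12 were positive and 2 (11.1%) lay above all controls in every cHet pool, against 6.11% of all genes. Those 2 were Rcor2 and Odc1, and the median of the list was 0.02 (0.02 without control pool 2, 0.10 without control pool 1). Odc1, ornithine decarboxylase, which makes the polyamine putrescine and has a structured leader, was at 465, 458 and 493 CPM in cHet pools, against 354, 356 and 348 CPM in control pools (log2 fold change 0.42, SE 0.0981, edgeR adjusted p = 0.181). It passed in monosome libraries (log2 fold change 0.54, adjusted p = 0.0112, edgeR), and the authors' deposited table lists it in input with a log2 fold change of 0.40 and an adjusted p of 0.00302. Jund, an AP-1 factor, was at 211, 184 and 197 CPM in cHet pools, against 191, 144 and 163 CPM in control pools (log2 fold change 0.25), with cHet pool 2 below control pool 1.

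Genes of interferon responses and of double-stranded RNA sensing had no member that passed edgeR's test. Of 24 genes 21 were tested, 16 were positive and 2 (9.52%) lay above all controls in every cHet pool, against 6.11% of all genes. The median was 0.26 (0.14 without cHet pool 1, 0.38 without control pool 2). Ifih1, which encodes the RNA sensor MDA5 (chr2:62595798-62646255), had 20, 10 and 19 read pairs in cHet pools, against 4, 4 and 4 in control pools (log2 fold change 1.94, SE 0.364, edgeR adjusted p = 0.127). Usp18, which removes ISG15 from proteins, had 19, 15 and 7 read pairs in cHet pools, against 1, 2 and 2 in control pools (log2 fold change 2.89, SE 0.951, edgeR adjusted p = 0.331). Both genes are at under 1 CPM in input, so that a few read pairs set these values. In monosome libraries Ifih1 had 31, 28 and 28 read pairs in cHet pools, against 42, 43 and 28 in controls. In polysome libraries, where its counts were higher, it had 249, 210 and 223 in cHet pools, against 203, 228 and 182 in controls, with overlapping groups. Adar, which edits double-stranded RNA and is the most abundant gene of the list, was at 49.3, 70.7 and 73.2 CPM in cHet pools, against 76.9, 61.8 and 66.8 CPM in control pools, with groups that overlapped.

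Stress pathways gave few differences, and none of their genes passed edgeR's test in input. The integrated stress response had a median of -0.03 (-0.06 without cHet pool 3, 0.01 without control pool 1) over 21 genes and endoplasmic reticulum stress one of 0 (-0.03 without control pool 2, 0.06 without control pool 3) over 20. Eif2ak3, the stress kinase PERK, was at 31, 32.6 and 31.6 CPM in cHet pools, against 25.1, 25.5 and 26.9 CPM in control pools (log2 fold change 0.30). Ppp1r15a, which undoes eIF2 phosphorylation, was at 15.8, 17 and 19.3 CPM in cHet pools, against 20.5, 19 and 22.8 CPM in control pools (log2 fold change -0.26). Among 19 genes of stress granules and the FMRP family, Lsm14a, a scaffold of processing bodies, was at 166, 167 and 168 CPM in cHet pools, against 122, 159 and 141 CPM in control pools. Cirbp, a cold-induced RNA-binding protein, was at 86.7, 85.8 and 80.9 CPM in cHet pools, against 129, 101 and 103 CPM in control pools. Lsm14a lay above and Cirbp below all controls in every cHet pool. Of the 19 genes, 1 (5.26%) lay above, against 6.11% of all genes, and 1 (5.26%) below, against 7.21%. The median of the 19 was 0.12, with 12 positive and 7 negative, and it was 0.03 without control pool 1. In cholesterol synthesis, Fdft1, squalene synthase, was at 142, 158 and 152 CPM in cHet pools, against 207, 162 and 178 CPM in control pools, with every cHet pool below all controls, and the median of the list was 0.01 (-0.06 without cHet pool 2, 0.04 without cHet pool 1). Of its 21 genes, 2 (9.52%) lay below all controls in every cHet pool, against 7.21% of all genes, and 1 (4.76%) above, against 6.11%.

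Cortical progenitor genes and neuronal genes were compared as lists of markers, and none passed edgeR's test. The median log2 fold change was 0.001 (-0.06 without control pool 1, 0.09 without control pool 2) over 21 radial glia genes, -0.03 (-0.09 without cHet pool 3, -0.01 without control pool 2) over 18 genes of intermediate progenitors and neurogenesis, -0.10 (-0.16 without cHet pool 1, -0.05 without control pool 3) over 16 deep-layer genes and 0.02 (-0.07 without cHet pool 1, 0.11 without control pool 3) over 17 upper-layer and pan-cortical genes. In bulk tissue, fewer cells of a type and less RNA per cell cannot be told apart. Lhx2, a LIM homeodomain factor that sets cortical identity in progenitors, was at 522, 539 and 529 CPM in cHet pools, against 350.2, 458 and 365 CPM in control pools (log2 fold change 0.44, SE 0.149, edgeR adjusted p = 0.339). Ttyh1, a radial glia membrane protein, was at 262, 268 and 265 CPM in cHet pools, against 179, 245 and 202 CPM in control pools (log2 fold change 0.35). In both of these genes every cHet pool lay above all controls, while their lists went both ways: 11 of 21 radial glia genes were positive and 10 negative, and 5 of 12 genes of dorsal telencephalon identity were positive and 7 negative, with a median of -0.02 (-0.10 without control pool 1, 0.04 without cHet pool 1). With DESeq2's size factors the median was -0.013 for radial glia genes and -0.004 for upper-layer and pan-cortical genes.

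Genes that come on as neurons are born went both ways, with 9 positive and 9 negative in the list of intermediate progenitors and neurogenesis and 9 positive and 8 negative in the upper-layer and pan-cortical list. The members of these lists described next lay on the lower side. Neurod6, a bHLH factor of cortical excitatory neurons, was at 742, 728 and 792 CPM in cHet pools, against 991, 861 and 1065 CPM in control pools (log2 fold change -0.37, SE 0.174, edgeR adjusted p = 0.466). Neurod2, its relative, was at 396, 404 and 447 CPM in cHet pools, against 632, 431 and 594 CPM in control pools (log2 fold change -0.41), with control pool 2 inside the cHet range. Insm1, which drives the birth of basal progenitors, was at 130.4, 144 and 175 CPM in cHet pools, against 197, 168 and 203 CPM in control pools, with cHet pool 3 above control pool 2. Rnd2, a GTPase of migrating neurons, was at 360.3, 386 and 468 CPM in cHet pools, against 531, 475 and 516 CPM in control pools (log2 fold change -0.33), with every cHet pool below all controls. Dll3, a Notch ligand that does not activate receptors on other cells, was at 12.5, 15.1 and 15.2 CPM in cHet pools, against 16.8, 17.9 and 18.2 CPM in control pools (log2 fold change -0.31), also with no overlap. In the cytoskeleton list, 16 of 23 genes were negative with a median of -0.21 (-0.29 without control pool 2, -0.13 without control pool 1) and none had groups that did not overlap. Tubb2b, a beta-tubulin of migrating neurons, was at 1889, 1903 and 2011 CPM in cHet pools, against 2955, 1909 and 2531 CPM in control pools, where control pool 2 was inside the cHet range.

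Cell cycle genes were mostly positive, by small amounts. Of 30, 24 were positive and 1 (3.33%) lay above all controls in every cHet pool, against 6.11% of all genes. The median was 0.05 (-0.02 without cHet pool 2, 0.20 without control pool 2). It was -0.002 without control pool 3. Ccnd2, the cyclin D of dividing cortical progenitors, was at 1649, 1842 and 1479 CPM in cHet pools, against 956, 1607 and 1102 CPM in control pools (log2 fold change 0.44). Of 26 axon guidance genes 19 were positive and 3 (11.5%) lay above all controls in every cHet pool, against 6.11% of all genes. The median of the list was 0.09, and without cHet pool 1 it was -0.007, with 12 positive and 14 negative. The 3 genes without overlap encode secreted cues. Slit2, a repellent for Robo receptors, was at 18.3, 19.9 and 12.8 CPM in cHet pools, against 7.15, 12.1 and 8.34 CPM in control pools (log2 fold change 0.89, SE 0.294, edgeR adjusted p = 0.331). Slit3, its paralog, was at 2.86, 2.94 and 2.26 CPM in cHet pools, against 1.4, 1.69 and 1.24 CPM in control pools (log2 fold change 0.90). Sema3c, a semaphorin, was at 19.1, 8.75 and 8.43 CPM in cHet pools, against 3.73, 8.02 and 7.37 CPM in control pools (log2 fold change 0.92). In Sema3c, cHet pool 1 lay far above the other 5 pools, and the other cHet pools exceeded control pool 2 only slightly. Among 25 synaptic adhesion genes the median was -0.03 (-0.19 without cHet pool 1, 0.02 without control pool 3), and Lrrtm4, an organiser of excitatory synapses, was at 8.3, 6.85 and 6.78 CPM in cHet pools, against 9.98, 10.2 and 12.6 CPM in control pools (log2 fold change -0.58).

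Markers of neighbouring tissue differed widely between pools of 1 group. The 13 choroid plexus markers tested of 14 summed to 219.6, 12.3 and 6.44 CPM in cHet pools, against 7.23, 7.89 and 5.89 CPM in control pools, of which Ttr, the transthyretin of the choroid plexus, made up 177 CPM in cHet pool 1. Clic6, another choroid plexus gene, was at 6.85, 0.695 and 0.23 CPM in cHet pools, against 0.16, 0.192 and 0.283 CPM in control pools. Kcnj13 was at 0 in 5 of the 6 libraries and Kcne2 in 4, where a count of 0 allows up to 3 read pairs, and without cHet pool 1 only 9 of the 13 passed the filter. The median was 2.29 over the 13 and 0.78 over those 9, so that the medians are not over the same genes. The 12 markers of the cortical hem, the signalling edge of the cortex beside the choroid plexus, summed to 127, 59.5 and 28.5 CPM in cHet pools, against 37.2, 41.8 and 34.7 CPM in control pools. Their median was 0.43 without cHet pool 1 and 1.29 with it. Wnt8b, a hem ligand, was at 9.13, 3.35 and 0.747 CPM in cHet pools, against 1.6, 0.981 and 0.0607 CPM in control pools, with cHet pool 3 below control pools 1 and 2. The 13 meningeal markers tested of 14 summed to 127, 87.7 and 69.6 CPM in cHet pools, against 28.5, 137 and 43 CPM in control pools, and Col3a1, a fibrillar collagen, was at 32.9, 22.8 and 17.3 CPM in cHet pools, against 2.99, 37.8 and 9.29 CPM in control pools. Foxc2 was at 0 in all 6 libraries. The part of these differences between pools in the gene differences above was not tested.

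Markers of ventral progenitors and interneurons, cells that Emx1-Cre does not reach, were also uneven between pools. The 14 ventral progenitor markers summed to 329, 228 and 176 CPM in cHet pools, against 218, 222 and 229 CPM in control pools, and Nkx2-1, a factor of the medial ganglionic eminence, was at 8.58 CPM in cHet pool 1 and at 1.90 CPM or less in the other 5 pools. The 18 interneuron markers summed to 609, 378 and 317 CPM in cHet pools, against 501, 342 and 452 CPM in control pools, with overlapping groups and a median of 0.06 (-0.33 without cHet pool 1, 0.22 without cHet pool 3). It was -0.09 without control pool 2, and without cHet pool 1 a negative value was found in 17 of the 18. Dlx1, an interneuron transcription factor, was at 161, 89.2 and 66.1 CPM in cHet pools, against 120.3, 82.3 and 114 CPM in control pools. Endothelial, mural, blood and microglial lists had medians of 0.04 (-0.06 without cHet pool 1, 0.13 without cHet pool 3), 0.12 (-0.12 without cHet pool 1, 0.17 without cHet pool 2), 0.12 (-0.11 without control pool 3, 0.29 without cHet pool 3) and -0.17 (-0.32 without cHet pool 1, -0.01 without cHet pool 3), and in none of them did any gene have groups that did not overlap. Hbb-y, an embryonic globin, was at 810.2, 917 and 551 CPM in cHet pools, against 677, 815 and 431 CPM in control pools, and Cx3cr1, a chemokine receptor of microglia, was at 7.98, 6.46 and 6.51 CPM in cHet pools, against 7.53, 9.13 and 8.06 CPM in control pools. Of 10 Cajal-Retzius markers 7 were positive with a median of 0.10 (-0.03 without cHet pool 2, 0.20 without control pool 1), and Reln, the signal these cells secrete, was at 44.4, 93.2 and 88.2 CPM in cHet pools, against 60.3, 78.2 and 70.1 CPM in control pools. Of 16 markers of thalamus and other neighbouring brain only 4 passed the filter on low counts.

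**Figure D5:**
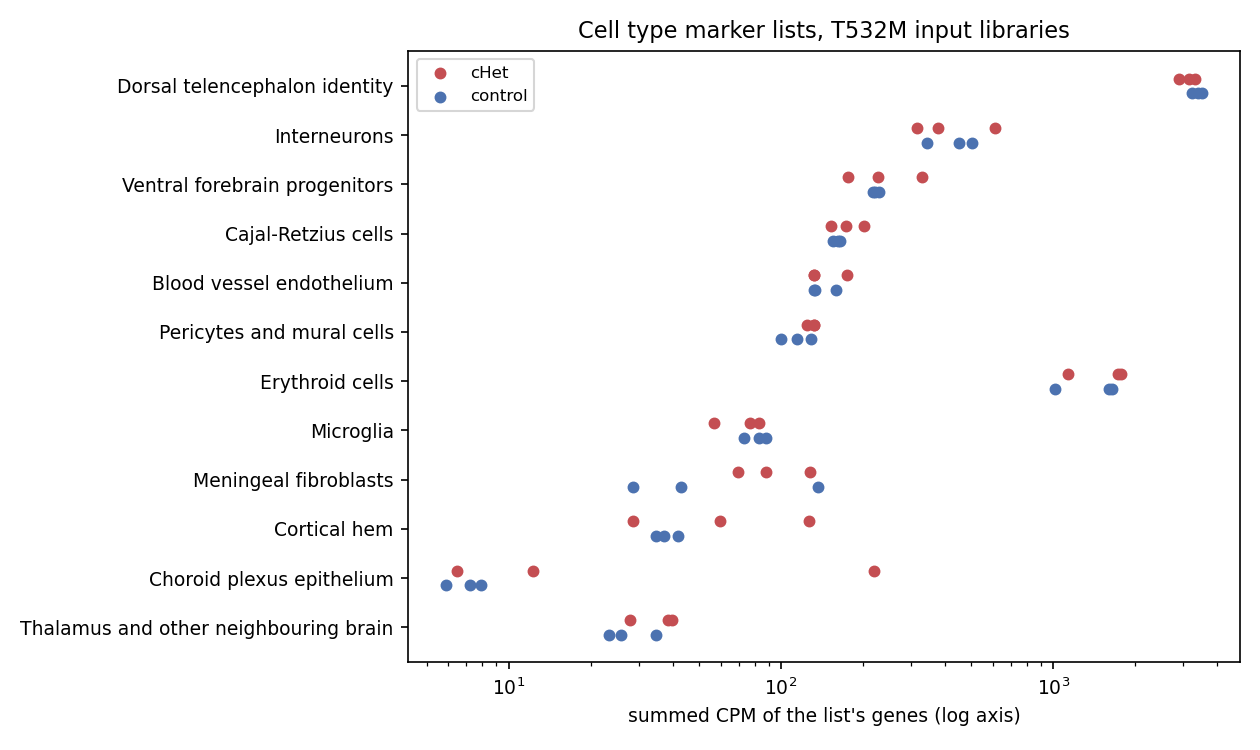
Summed CPM of marker lists of other cell types and tissues (rows) in each T532M input pool on a logarithmic horizontal axis, with the cHet points above the control points in each row. Choroid plexus markers stand at 219.6 CPM in cHet pool 1 and between 5.89 and 12.3 CPM in the other pools, while interneuron markers overlap between groups at 317 to 609 CPM in cHet and 342 to 501 CPM in control pools.

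Genes beside Ddx3x on the X chromosome were examined because they share its surroundings. Of the 10 tested apart from Ddx3x, none passed edgeR's test and 3 lay above all controls in every cHet pool, against 6.11% of all genes. Their median log2 fold change was 0.13, with 7 positive and 2 negative. With Ddx3x, the 11 genes had a median of 0.14, and of 0.07 without control pool 1. Med14, a Mediator subunit, was at 68.1, 65.5 and 61.4 CPM in cHet pools, against 37.4, 60.4 and 51 CPM in control pools (log2 fold change 0.39). Cask, a synaptic scaffold kinase, was at 64.2, 56.2 and 50.1 CPM in cHet pools, against 30.9, 47.2 and 46.6 CPM in control pools (log2 fold change 0.45). The third was Maoa, and in Med14 and Cask control pool 1 was the lowest of the 6 pools, as for Ddx3x. Among 9 genes that escape X inactivation, Kdm6a, a histone demethylase, was at 22.8, 14.9 and 14.2 CPM in cHet pools, against 6.99, 17.2 and 14.2 CPM in control pools, also with control pool 1 lowest and with groups that overlapped. Malat1, an abundant RNA kept in the nucleus, was at 279, 118 and 43.5 CPM in cHet pools, against 34.8, 96.8 and 80.6 CPM in control pools, with overlapping groups and control pool 1 again the lowest. Pantr1, a nuclear RNA of neural progenitors, was at 285, 284 and 309.7 CPM in cHet pools, against 363, 324 and 382 CPM in control pools (log2 fold change -0.28), and Zfas1, a snoRNA host gene with a TOP start, was at 43.6, 41.4 and 43.9 CPM in cHet pools, against 56.9, 46 and 57.5 CPM in control pools (log2 fold change -0.32), both below all controls in every cHet pool. The 14 nuclear long non-coding RNAs tested mostly went the other way, with a median of 0.23, 9 positive and 5 negative. In 1 of them (7.14%) every cHet pool lay below all controls, against 7.21% of all genes. The 18 snoRNA host genes tested had a median of -0.10, with 6 positive and 12 negative. Of these, 4 (22.2%) lay below all controls in every cHet pool and 1 (5.56%, against 6.11% of all genes) above. Replication-dependent histones, immediate early genes and extracellular matrix genes had medians of -0.09 (-0.17 without cHet pool 1, 0.04 without control pool 2), -0.01 (-0.07 without control pool 2, 0.04 without control pool 1) and 0.13 (-0.02 without control pool 1, 0.39 without control pool 2) over 27, 19 and 28 genes, and the median of the histones was 0.04 in input libraries alone. Of these genes 4 (14.8%), 0 and 1 (3.57%) lay below all controls in every cHet pool, against 7.21% of all genes, and none lay above.

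Whether the input effect of T532M differs from that of the LoF allele was tested as an interaction over all 36 libraries. The effect differed for 2 of 19121 genes (0.0105% called), Ifih1 and Nadk2, with 3047 genes (15.9%) at an unadjusted p under 0.05. Nadk2 was at 32.4, 28.5 and 26.3 CPM in T532M cHet pools, against 14.7, 22.4 and 17.5 CPM in T532M controls. In the LoF cross it was at 13.3, 17.3 and 15.1 CPM in cHet pools, against 26.2, 17.4 and 20.8 CPM in controls. The T532M effect exceeded the LoF effect by 1.17 on the log2 scale (SE 0.212, edgeR adjusted p = 0.0499). Ifih1 had a difference of 3.53 (SE 0.473, edgeR adjusted p = 0.000447), with 6, 5 and 10 read pairs in LoF cHet pools, against 24, 22 and 23 in LoF controls. For Ddx3x, whose log2 fold change was -0.33 in LoF input, the difference was 1.32 and did not pass (SE 0.374, edgeR adjusted p = 0.0778). Rps29 had a difference of -0.98 (edgeR adjusted p = 0.0601) and Acsbg1 one of -0.80 (edgeR adjusted p = 0.0609), neither past the threshold. Among the other genes of smallest p, Trpm7, an ion channel with a kinase domain, had a difference of 1.18 and Hfm1, a helicase of meiosis, one of 1.61, neither past the threshold. Leaving out 1 pool moved this count both ways. It was 1 without T532M control pool 1, T532M cHet pool 1, T532M cHet pool 2, LoF control pool 1 or LoF cHet pool 1, and 0 with input libraries alone. It was 1697 without T532M control pool 2, 802 without LoF cHet pool 2, 670 without T532M cHet pool 3, 330 without LoF control pool 2 and 39 without LoF control pool 3. The crosses differ in their controls as well, since T532M controls carry Cre and LoF controls do not, and this cannot be told apart from the alleles.

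Whether the T532M effect differs between polysome RNA and input was tested within the 6 pools of the cross. No gene of 18243 passed edgeR's test (0% called), DESeq2 also called 0, and 1113 genes (6.10%) had an unadjusted p under 0.05. Smad4 had one of the smallest p on the lower side, with an effect in polysomes less that in input of -0.63 (SE 0.149, edgeR adjusted p = 0.793), and its log2 fold change in polysome libraries was -0.07. Rpl39 had 0.51 (SE 0.154, edgeR adjusted p = 0.793) and Dll3 0.60 (SE 0.155, edgeR adjusted p = 0.793) on the higher side. Ctsa and Naglu, both enzymes of lysosomes, had 0.51 and 0.86, and Ppfia1, a scaffold of focal adhesions, and Zc3h14, a poly(A)-binding protein, had -0.67 and -0.69, none past the threshold. The input values enter this difference with a minus sign, so that a difference in input alone gives the opposite sign here. For the ribosomal proteins the median of this difference was 0.22, and for oxidative phosphorylation it was 0.14.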

How the data were processed

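RNA was measured in input, monosome and polysome libraries of 2 crosses, and the input libraries of the T532M cross are described here. The authors deposited raw counts of read pairs for 55487 genes; per the file headers, featureCounts 2.0.3 counted them over whole genes and their introns, with strand set to reverse, on GENCODE M25 and GRCm38. Per the submitters' processing notes, STAR 2.7.11a, FastQC 0.11.7 and DESeq2 1.34.0 are named too. The authors' deposited table of the T532M cross holds log2 fold changes with raw and adjusted p-values for each gene; 36 further columns of per-sample values were not used.

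Here edgeR 4.0.16 (R 4.3.3, limma 3.58.1) fitted the 18 T532M libraries with 1 term for each of 6 groups, after TMM scaling and filterByExpr, with quasi-likelihood tests and Benjamini-Hochberg adjustment over all genes tested (threshold 0.05). The interaction with the LoF cross used all 36 libraries. The 18 libraries of the cross come from 6 pools and were treated as independent. The code was tested on simulated data. The genes named are Ddx3x, then genes past the threshold, then the 12 of smallest p in each direction (at least 2 CPM, groups that do not overlap), up to 4 genes and the most abundant marker per list, and up to 5 genes per direction and interaction. A few genes that this rule names are not reported here. Members and lists were chosen with earlier results of these data known, and lists were not tested as sets. Alternatives were DESeq2 1.42.0, its size factors, no filter on low counts, input libraries alone, a replicate block, an offset for gene length and leaving out each pool. Genes that overlap on 1 strand or have near-identical copies, as many ribosomal protein genes do, can share reads.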

Additional observations from a re-analysis of the deposited data

Results flagged for a closer look

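The input effects of T532M and LoF differed by edgeR's interaction test for 2 genes. Ifih1 differed by 3.53 on the log2 scale (SE 0.473, edgeR adjusted p = 0.000447), at 0.406, 0.207 and 0.365 CPM in T532M cHet pools, against 0.0784, 0.0872 and 0.0805 CPM in T532M controls, and at 0.11, 0.1 and 0.216 CPM in LoF cHet pools, against 0.446, 0.425 and 0.391 CPM in LoF controls. All 3 T532M cHet pools lay above their controls and all 3 LoF cHet pools below theirs, at 4 to 24 read pairs per library. In polysome libraries the Ifih1 counts overlapped between groups in both crosses. There the LoF cHet pools had 284, 218 and 237 read pairs, against 188, 231 and 255 in LoF controls. Nadk2 differed by 1.17 (SE 0.212, edgeR adjusted p = 0.0499), higher in all 3 T532M cHet pools than in any T532M control and lower in all 3 LoF cHet pools than in any LoF control. In the LoF cross the groups nearly touched, with cHet pool 2 at 17.29 CPM and control pool 2 at 17.35 CPM.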

How the results depend on the processing

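The count of genes called in input was 1 with the settings of the report and with DESeq2's size factors or the gene length offset. It was 157 with no filter on low counts, 0 with input libraries alone, 21 with a replicate block, 0 with a replicate block on input libraries alone and 121 with DESeq2. Leaving out 1 pool gave 0 to 543, the highest without control pool 2. In the fit of input libraries alone, chosen after seeing the data, leaving out control pool 2 or cHet pool 1 gave 0. The count for T532M less LoF was 2, and also 2 with DESeq2's size factors; it was 1163 with no filter, 0 with input libraries alone, 34 with a replicate block, 720 with DESeq2 and 1 to 1697 leaving out 1 pool. The cause was not tested. The count for polysome less input was 0 under every alternative run, with 545 to 1825 genes at an unadjusted p under 0.05. The labels do not say that equal replicate numbers pair cHet with control pools. The deviations of such pools correlated at -0.334, 0.182 and -0.109. With 3 pools per group, these correlations cannot tell whether pools share a litter or day. A replicate block by pool, which joins input and polysome libraries of 1 pool, gave 0 genes for polysome less input. Among single genes, the log2 fold change of Rps2, 0.01 in the report, was -0.003 with DESeq2's size factors and with DESeq2, and -0.026 to 0.082 leaving out 1 pool; in input libraries alone it was -0.016 without control pool 2 and -0.001 without cHet pool 1. Rpl36al ran between -0.1 and 0.11 and Reln between -0.068 and 0.383 leaving out 1 pool, and Rpl36al was -0.085 in input libraries alone without cHet pool 1. The 1 gene called in input had 4 read pairs or fewer in each control pool, so that its value rests on few reads.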
